A study of Homo sapiens with 13 samples.

Results

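The 35 genes described here encode aminoacyl-tRNA synthetases, the enzymes that join each amino acid to its transfer RNA (tRNA). They were chosen by name from the 56238 genes of a count table, as 19 cytosolic and 16 mitochondrial enzymes; the rule uses no measured value, but it was set with earlier results of these data known. Expression was measured by RNA sequencing of 13 monoclonal lines of 293T, a human embryonic kidney line with extra copies of many chromosomes. All lines, controls included, had been given plasmids encoding Cas9 and the guide RNA, plus a repair template, selected briefly with puromycin, sorted as single cells and genotyped at rs199643834, a coding variant of FLCN. The labels list 3 copies of the site. The 4 WT clones carry the edit on 0 of 3 copies, the 7 HET clones on 1 of 3 and the 2 HOM clones on all 3. Each library is 1 clone, so p-values measure the spread between clones, and changes that a clone acquired by chance cannot be told apart from the edit within that clone. How many copies of FLCN each clone holds was not measured here.

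Cells keep a cytosolic set of synthetases for the proteins read from nuclear genes and a mitochondrial set for the few proteins encoded by mitochondrial DNA, and nuclear genes encode both sets. Most amino acids have 1 gene for each set. GARS1 and KARS1, for glycine and lysine, serve both compartments, EPRS1 charges both glutamate and proline, and FARSA and FARSB are the subunits of the cytosolic phenylalanine enzyme. Several cytosolic enzymes are held in the multisynthetase complex by the scaffold proteins AIMP1, AIMP2 and EEF1E1. When a tRNA is left uncharged the kinase GCN2, encoded by EIF2AK4, is activated and synthesis of the transcription factor ATF4 goes up, and many cytosolic synthetase genes are known ATF4 targets. FLCN, the edited gene, acts on the Rag GTPases that bring mTORC1 to the lysosome in response to amino acids, and LARS1 has been described as a leucine sensor of that pathway.

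Libraries held 44504068 to 54377639 counts, and all 35 genes passed the filter on low counts, with between 367 counts (FARS2) and 41496 counts (IARS1) in a library. The level of FLCN itself ran from 26.1 to 50.5 CPM (counts relative to library size, scaled by the TMM method) in WT, from 27.4 to 64 in HET and from 23.7 to 36.7 in HOM clones, so the groups overlapped. An edit of a base does not remove the transcript, and this level does not check the genotype. VIM, KRT18 and CDH2, expected in 293T, were at 33.5 CPM or more in every clone, whereas PAX2 and NEFM stayed at or below 2.65 CPM. PTPRC, CD3E and ALB, markers of other cell types, stayed at or below 0.97 CPM, and COL1A1 lay between 2.75 and 29.5 CPM. HOM 1 stood apart in RNA composition, and HET 6 came next in the shares given here. Mitochondrially encoded genes took 4.33% of counts in HOM 1, 3.54% in HET 6 and 3.23% in WT 2, and 1.76% in the lowest clone. Small nucleolar RNAs took 0.022% in HOM 1, 0.00893% in HET 6 and 0.00681% or less in the other clones. The part of HOM 1 and HET 6 in the results below was not tested. Estimates without HOM 1 are given for some members whose value it decides. For HET 6 alone, the number of members called without it is given.

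The promoters of the synthetase genes show which members carry the sequence through which ATF4 is known to act. Windows from 250 bases before to 50 after the start were found in RefSeq (GRCh38.p14) for 30 of the 35 genes, 16 cytosolic and 14 mitochondrial. The core of the C/EBP-ATF response element (CARE), TGATGNAA on either strand, occurred in 6 cytosolic and 1 mitochondrial window, and in 3.67% of 27305 windows of all genes. The form TGATGCAA, a subset of that motif, occurred in the same 6 cytosolic windows, in none of the mitochondrial ones and in 0.923% of all windows. The sites are shown because the expression results below are divided by them. Each is read along its gene, with the core or its reverse complement, TTGCATCA, in capitals.
AARS1, chr16:70289675-70289704, minus strand: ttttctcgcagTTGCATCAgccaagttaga
CARS1, chr11:3057407-3057436, minus strand: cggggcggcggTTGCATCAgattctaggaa
IARS1, chr9:92293692-92293721, minus strand: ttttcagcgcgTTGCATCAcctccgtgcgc
MARS1, chr12:57488053-57488082, plus strand: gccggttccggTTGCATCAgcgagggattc
NARS1, chr18:57621804-57621833, minus strand: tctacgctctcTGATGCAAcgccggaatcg
TARS1, chr5:33440956-33440985, plus strand: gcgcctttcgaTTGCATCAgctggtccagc
In AARS1 the core lay from position -187 to -180 relative to the start. In the other 5 genes it lay near the start, between position -13 and position 22. The mitochondrial window with the wider motif belonged to YARS2. The E-box CACGTG, the centre of the element bound by TFE3 and TFEB, which act downstream of FLCN, occurred in the windows of IARS1, CARS2, EARS2 and MARS2, and in 7.43% of all windows. The ETS factor site CCGGAAG, on either strand, occurred in 8 cytosolic and 6 mitochondrial windows, and in 10.7% of all windows. A match describes letters only.

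HARS1 and HARS2, the cytosolic and mitochondrial histidine enzymes, are read in opposite directions from neighbouring starts on chromosome 5, 85 bases apart in the RefSeq annotation. The 84 bases between the starts are shown because the level of HARS2 separated WT from edited clones, as described below. They are read on the plus strand, toward HARS2, with the ETS sites or their reverse complement, CTTCCGG, in capitals.
HARS1-HARS2, chr5:140691371-140691454: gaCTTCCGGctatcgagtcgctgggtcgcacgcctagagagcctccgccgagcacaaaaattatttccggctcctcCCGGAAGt
Of the 30 members with a promoter window, 8 had a protein-coding gene starting in the opposite direction within 1000 bases. The share was 10.3% among the 15843 protein-coding genes with a window. Members without a window could not be examined in this way. The partners were TERF2IP for KARS1, WDR25 for WARS1, UBFD1 for EARS2, LYRM4 for FARS2, ORC3 for RARS2 and MRPS12 for SARS2. Annotated exons of 17 members overlapped those of another gene, in 16 cases on the other strand. The libraries were stranded, but the strand setting of the counting is not given, and counts of these members are therefore uncertain to the extent that reads were shared. HARS1 and HARS2 overlap each other in this way, and HARS2 also overlaps ZMAT2 on the same strand.

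Levels per transcript length placed most cytosolic enzymes above the mitochondrial ones. Expressed as TPM, the count per exon length relative to that of all genes, with lengths from GENCODE 29, the median of the 19 cytosolic genes was 199 TPM, with a range from 36.9 to 443, and that of the 16 mitochondrial genes was 44.95 TPM, with a range from 6.11 to 341. With the merged exon length EPRS1 was highest, at 443 ± 85.1 TPM (SD, n = 13), followed by IARS1 at 353 ± 81.1 and IARS2, the mitochondrial isoleucine enzyme, at 341 ± 46.3. IARS2 was the only mitochondrial gene among the 16 highest. At the other end stood SARS2 at 25.9 ± 4.77, FARS2 at 9.82 ± 1.5 and CARS2 at 6.11 ± 1.33 TPM. Of the 34 pairs of neighbours in this order, only SARS2 with FARS2 and FARS2 with CARS2 lay further apart than both SDs. With the longest transcript as length FARS2 and CARS2 changed places, at 8.88 ± 1.28 and 13.2 ± 2.94 TPM, and SARS1 (488), IARS1 (407) and YARS1 (366) stood above EPRS1 (350). The order between adjacent genes is therefore largely not resolved.

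Where an amino acid has a gene for each compartment, the cytosolic gene had the higher mean TPM in 13 of 13 pairs, and in 13 of 13 when the longest transcript served as length. The ratio was 1.04 for isoleucine, 1.42 for histidine and 12.7 for serine. Exon lengths came from another build than the counts, and for 9 of 20 named genes the TPM moved by more than 1 SD with the other length.

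**Figure D1:**
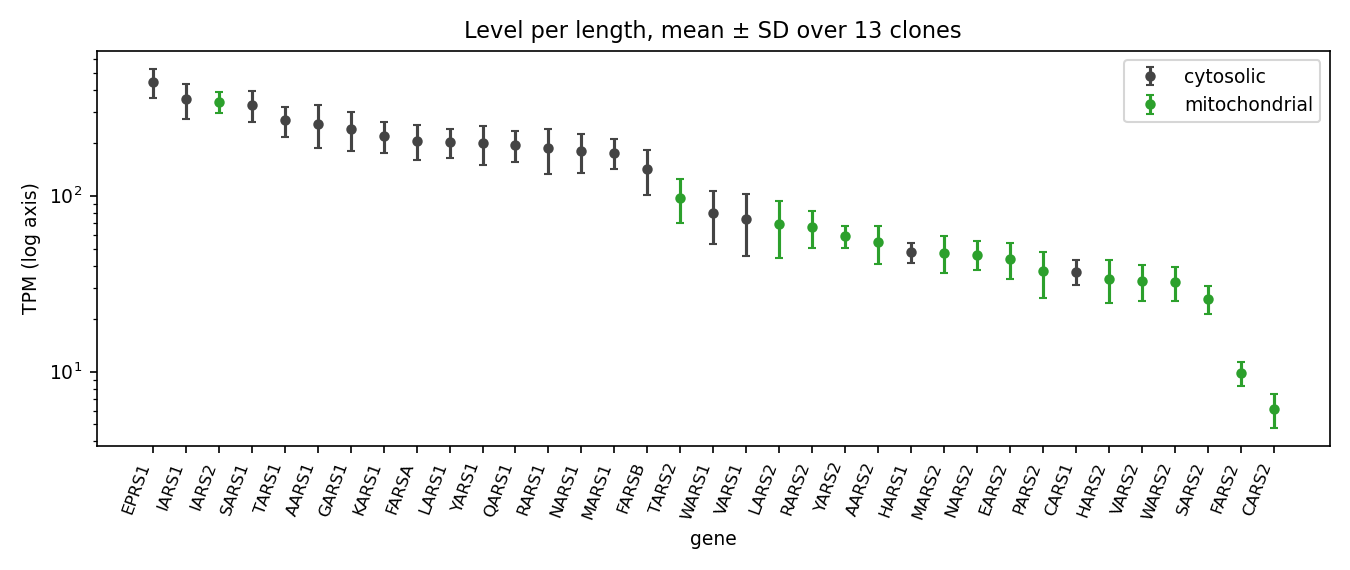
Mean level per length of each gene over the 13 clones (vertical axis, TPM, log scale; bars are ± 1 SD), ordered from highest to lowest along the horizontal axis, with cytosolic genes in grey and mitochondrial genes in green. EPRS1 stands at 443 TPM and CARS2 at 6.11 TPM, and IARS2 is the mitochondrial gene among the cytosolic ones at the upper end.

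In bulk RNA a lower level in every cell and fewer expressing cells cannot be told apart. Most synthetase genes varied between clones more than the median gene of at least 10 CPM. The SD of log2 CPM over the 13 clones had a median of 0.375 for the 35 genes, against 0.281 for the 9939 genes with a mean of at least 10 CPM, and 6 members lay below that value. VARS1, the valine enzyme, varied most, with an SD of 0.65 and a highest clone 4.23-fold above the lowest, followed by WARS1 (tryptophan) at 0.628 and LARS2 (mitochondrial leucine) at 0.573. CARS1 (cysteine) at 0.221, QARS1 (glutamine) at 0.24 and HARS1 at 0.246 varied least.

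Many members were high or low together in the same clones. HET 3 held the highest level of 18 of the 35 genes, 8 cytosolic and 10 mitochondrial, and the lowest of none. HET 6 was the lowest of the 7 HET clones for 13 of 19 cytosolic and 11 of 16 mitochondrial genes. WT 1 was the highest of the 4 WT clones for 14 cytosolic and 9 mitochondrial genes, and WT 3 held the lowest level of all clones for 9 genes. Relative to the mean of the WT clones, the mean log2 level of the cytosolic genes ran from -0.21 in WT 3 to 0.39 in WT 1 and from -0.13 in HET 6 to 0.68 in HET 3. It was 0.28 in HOM 1 and 0.30 in HOM 2, inside the range of the WT clones. For the mitochondrial genes these means were -0.08 to 0.19 in WT, -0.12 to 0.72 in HET, and 0.30 and 0.39 in HOM clones. The 35 genes together took 0.503% to 0.678% of counts in WT, 0.515% to 0.749% in HET, and 0.609% and 0.612% in HOM clones.

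**Figure D2:**
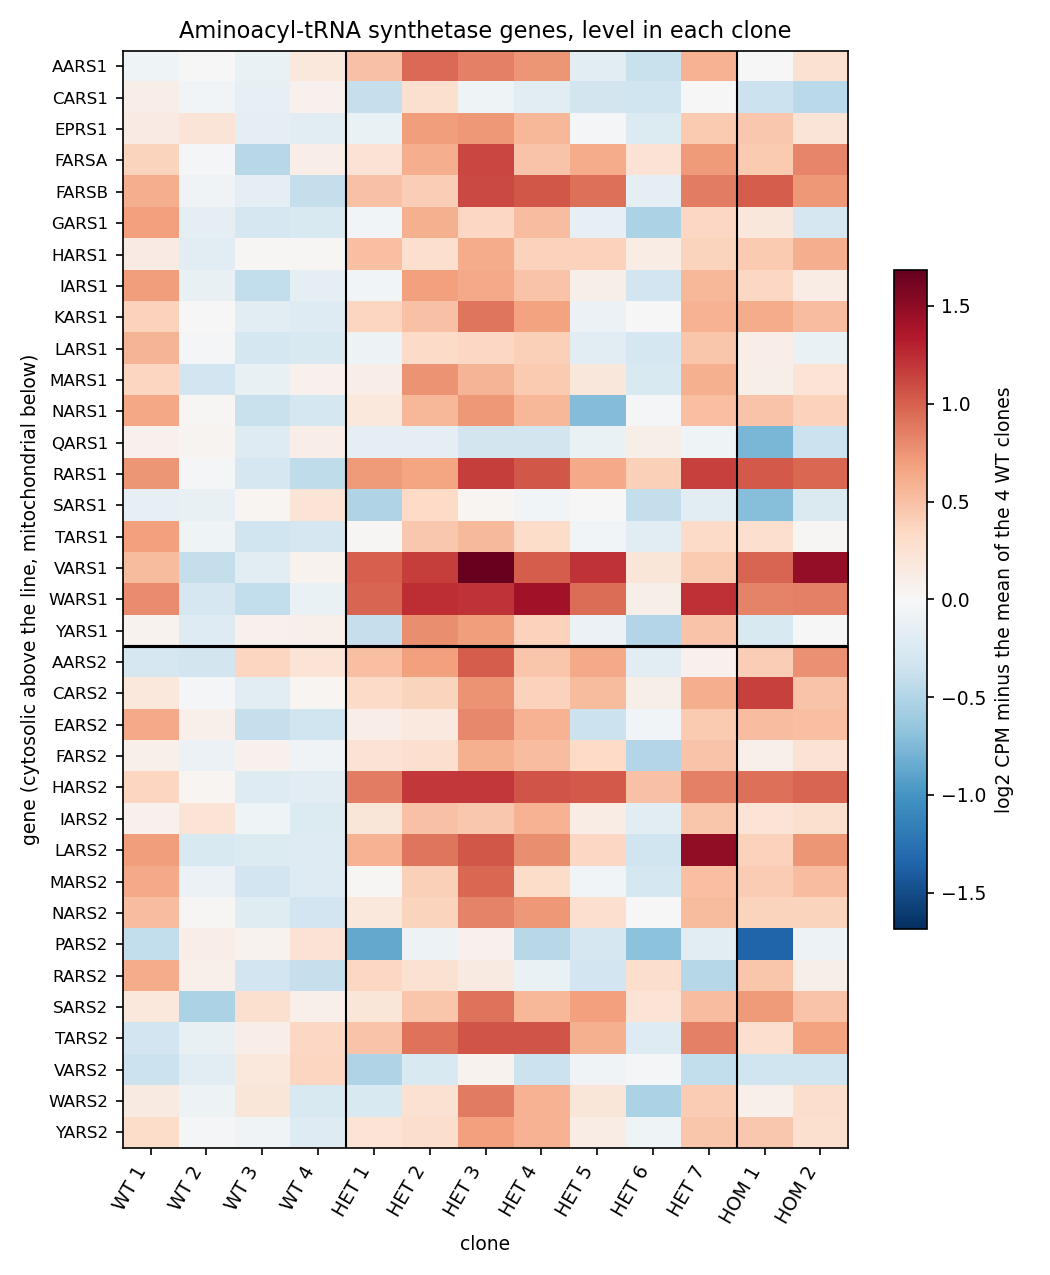
Level of each of the 35 genes (rows, cytosolic above the thick line and mitochondrial below) in each of the 13 clones (columns, with genotypes divided by vertical lines), as log2 CPM minus the mean of the 4 WT clones; red is above and blue below that mean. The HET 3 column is red for nearly all genes, HET 6 is pale or blue for most, and WT 1 is redder than the other WT clones.

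In HET compared with WT clones, most synthetase genes had a higher estimated level, and HARS2 was the member that passed the test across all genes. The estimated log2 fold change was above 0 for 29 of the 35 genes, 16 of 19 cytosolic and 13 of 16 mitochondrial, with a median of 0.33 in each set. Among all 20320 genes tested it was above 0 for 50.8%, with a median of 0.01, and among the genes with a mean of at least 10 CPM for 58.6%, with a median of 0.06. At an edgeR adjusted p below 0.05, 1 member was called, where 26 genes, 0.128% of those tested, were called in either direction. At an unadjusted p below 0.05, 17 members were higher (8 cytosolic and 9 mitochondrial), where 9.73% of all genes and 15.6% of genes of at least 10 CPM were higher. None of the members was lower by that measure, where 8.73% of all genes were. When 1 surrogate variable, an unnamed source of variation estimated from the data, was added to the fit, 17 of the 35 genes were above 0, and the medians were -0.06 for the cytosolic and 0.02 for the mitochondrial set.

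HARS2 (ENSG00000112855.10), which charges histidine in mitochondria, had 24.9, 19.8, 16.6 and 17.1 CPM in WT 1 to WT 4. In HET 1 to HET 7 it had 35.1, 44.1, 44.3, 40.3, 39.7, 27.3 and 34.7 CPM, and in the HOM clones 36.8 and 38.3 CPM. The lowest edited clone, HET 6, stood above the highest WT clone, WT 1, so neither edited group overlapped WT. HARS2 was the only member without overlap between HET and WT, where 1.23% of all genes lay wholly higher and 1.38% wholly lower in HET. Its mean was 19.6 ± 3.79 CPM (SD, n = 4) in WT and 37.9 ± 6.03 CPM (n = 7) in HET clones, a log2 fold change of 0.95 (SE 0.16, adjusted p = 0.045, edgeR), the 8th lowest p of all genes.

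The call for HARS2 lay close to the threshold. It held in 10 of 24 alternative fits, with log2 fold changes from 0.67 to 1.11. Adjusted p-values ran from 1.1e-05 with DESeq2 to 0.45 with a surrogate variable. The call was lost when any clone other than WT 1 or HET 6 was left out, with adjusted p-values up to 0.23 in those fits. Where such a WT or HET clone was left out, 0% of all genes were called, or 0.00984% without HET 2. The fits with 1 surrogate variable, the GC correction or only the groups compared also called 0% of all genes. These losses were therefore not particular to HARS2. The direction of HARS2 was the same in all 24. HARS1, which shares the 84-base stretch, had 67.5 to 84.5 CPM in WT clones and 83.5 to 118 CPM in HET clones, with a log2 fold change of 0.39 (SE 0.11, adjusted p = 0.11, edgeR). Only HET 6, at 83.5 CPM, lay below a WT clone. For ZMAT2, whose exons overlap those of HARS2, the log2 fold change was 0.21 (SE 0.11, adjusted p = 0.33, edgeR). The other members on chromosome 5 are LARS1, RARS1 and TARS1, and the chromosome as a whole had a median log2 difference of 0.05 between HET and WT.

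**Figure D3:**
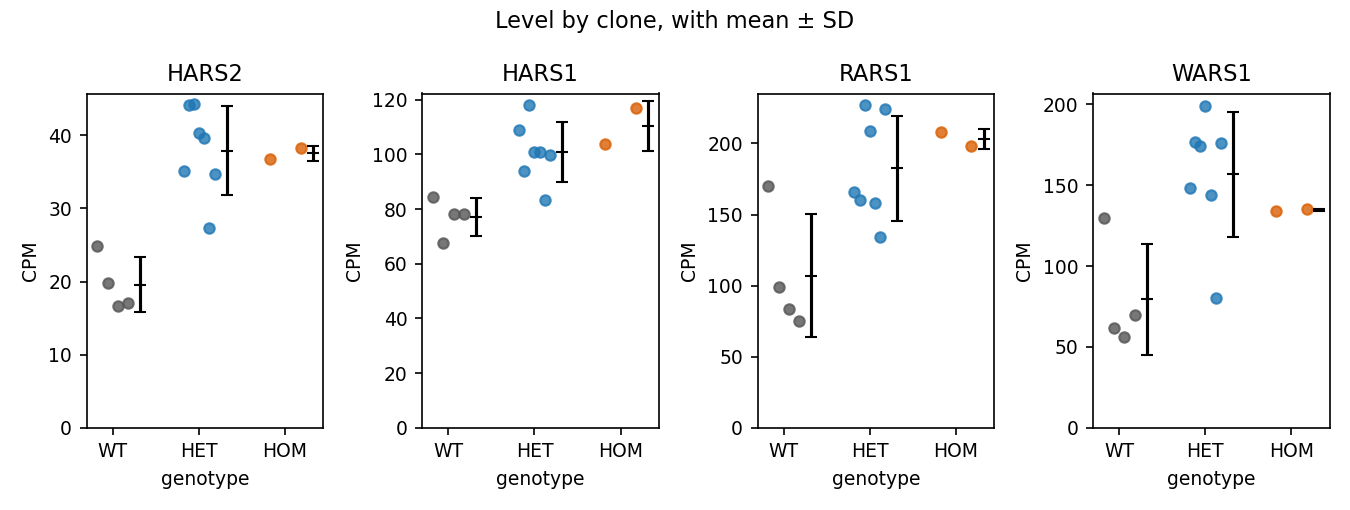
Level in CPM (vertical axes, from 0) of HARS2, HARS1, RARS1 and WARS1 in each WT, HET and HOM clone (points), with mean ± 1 SD beside them. HARS2 in the HET and HOM clones lies above 24.9 CPM, the highest WT clone, whereas for RARS1 and WARS1 the WT 1 clone reaches into the range of the HET clones.

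Among cytosolic enzymes the lowest p-values were those of WARS1, VARS1, RARS1 (arginine), HARS1 and FARSA. VARS1 had 93.2, 48.8, 56.7 and 67 CPM in the WT clones and a lowest value of 74.3, a median of 131 and a highest of 207 CPM in HET clones. Its log2 fold change was 0.99 (SE 0.26, adjusted p = 0.094, edgeR). WARS1 had 130, 61.8, 56.4 and 69.5 CPM in WT clones and 80.1 to 199 CPM in HET clones, with a median of 174 and a log2 fold change of 0.98 (SE 0.25, adjusted p = 0.093, edgeR). In both genes WT 1 was the highest WT clone and HET 6 the lowest HET clone, and these overlapped. RARS1, a member of the multisynthetase complex, had 170, 98.9, 83.5 and 75.1 CPM in WT and 134 to 227 CPM in HET clones, again with only WT 1 inside the HET range (log2 fold change 0.77, SE 0.21, adjusted p = 0.10, edgeR). The subunits of the phenylalanine enzyme had similar values, 0.57 (SE 0.18) for FARSA and 0.68 (SE 0.23) for FARSB. None of these genes passed edgeR's test. DESeq2, which called 5.28% of all genes, called WARS1, VARS1, RARS1 and HARS1, and limma voom, which called 20.8%, called these and the FARSA and FARSB subunits. Without WT 1 the members called were 7, and without HET 6 they were 8, with 7.14% and 7.74% of all genes called. Without both HET 6 and HOM 1 the members called were 7, where 6.2% of all genes were.

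The mitochondrial enzymes TARS2 (threonine), SARS2 (serine), CARS2 (cysteine) and LARS2 followed HARS2. TARS2 had 56.7, 64.7, 76.2 and 89.8 CPM in WT and 60.7 to 148 CPM in HET clones, with a median of 127, a log2 fold change of 0.71 and an SE of 0.21 (adjusted p = 0.12, edgeR). Every HET clone but HET 6 lay above the WT range. LARS2 had 133 CPM in WT 1 and 68.1 to 70 CPM in the other WT clones, against 64.4 CPM in HET 6 and 104 to 229 CPM in the other HET clones (log2 fold change 0.72, SE 0.29, adjusted p = 0.21, edgeR). The values were 0.50 (SE 0.18) for SARS2 and 0.45 (SE 0.17) for CARS2, with edgeR adjusted p-values of 0.16 and 0.18.

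Values for further cytosolic genes were as follows. The log2 fold change was 0.50 (SE 0.22) for AARS1, 0.43 (SE 0.18) for KARS1, 0.33 (SE 0.19) for EPRS1, 0.14 (SE 0.23) for GARS1 and 0.12 (SE 0.19) for LARS1. With 1 surrogate variable it was -0.06 for EPRS1, -0.35 for GARS1 and -0.28 for LARS1, so the direction of these 3 genes depended on the fit. The 6 members with an estimate below 0 were QARS1 (-0.14), CARS1 (-0.13), SARS1 (-0.09), PARS2 (-0.35), VARS2 (-0.24) and RARS2 (-0.01), and none of them had an unadjusted p below 0.05. By complex, 6 of the 7 members of the multisynthetase complex were above 0, with a median of 0.33. By the 2 structural classes into which synthetases fall, 14 of 18 class I genes were above 0, with a median of 0.28, and 14 of 16 class II genes, with a median of 0.42. EPRS1, which holds an enzyme of each class, was in neither count.

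In HOM compared with WT clones the same 4 WT clones served as control, and the HOM group had 2 clones. The estimate was above 0 for 27 of the 35 members, 13 of 19 cytosolic (median 0.17, from -0.56 to 1.21) and 14 of 16 mitochondrial (median 0.39, from -0.60 to 0.94), where 49% of all genes were above 0. No gene of the whole table passed edgeR's adjusted threshold (0% called), and so no member did. At an unadjusted p below 0.05, 10 members were higher, where 7.52% of all genes and 9.34% of genes of at least 10 CPM were, and 2 were lower, where 6.84% of all genes were. The number of members higher by that measure fell when either HOM clone was left out, in fits that rest on 1 HOM clone. DESeq2 called 4 members, of which QARS1 was lower, where it called 1.77% of all genes, and limma voom called 7, where it called 2.94%. In the fit with 1 surrogate variable 15 members were above 0, with medians of -0.22 for the cytosolic and 0 for the mitochondrial set.

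Lacking overlap was frequent in a comparison of 2 clones with 4. Of all genes 12.8% lay wholly higher in HOM and 12.8% wholly lower, and of the members 12 lay higher and 3 lower. The 12 were HARS2, HARS1, VARS1, RARS1, WARS1, FARSA, FARSB, KARS1, CARS2, SARS2, AARS2 and IARS2. HARS2 had a log2 fold change of 0.94 (SE 0.21, adjusted p = 0.18, edgeR), VARS1 of 1.21 (SE 0.33, adjusted p = 0.21, edgeR) and RARS1 of 0.93 (SE 0.28, adjusted p = 0.22, edgeR). VARS1 measured 127 CPM in HOM 1 and 179 CPM in HOM 2, above the 93.2 CPM of WT 1. CARS2, at 10.8 to 13.8 CPM in WT clones, measured 27.2 CPM in HOM 1 and 17.1 CPM in HOM 2 (log2 fold change 0.85, SE 0.22, adjusted p = 0.20, edgeR). HOM 1 was thus its highest clone of all, and HOM 2 lay within the HET range of 13.1 to 20.7 CPM. Without HOM 1 the CARS2 estimate was 0.49.

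The members wholly lower in HOM clones were the cytosolic enzymes QARS1, SARS1 and CARS1. QARS1, a member of the multisynthetase complex, had 266, 261, 218 and 273 CPM in WT clones, 205 to 271 CPM in HET clones, 149 CPM in HOM 1 and 197 CPM in HOM 2. Its log2 fold change was -0.56 (SE 0.17, adjusted p = 0.22, edgeR), and -0.36 without HOM 1. Those of SARS1 and CARS1 were -0.47 (SE 0.22) and -0.41 (SE 0.18). HOM 1 was the lower of the pair for QARS1 and SARS1 and HOM 2 for CARS1. PARS2, the mitochondrial proline enzyme, had 10.2 CPM in HOM 1 and 24.4 CPM in HOM 2, and HOM 2 lay inside the WT range of 19.5 to 30.5 CPM (log2 fold change -0.60, SE 0.33, adjusted p = 0.40, edgeR). Without HOM 1 the PARS2 estimate was -0.09.

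**Figure D4:**
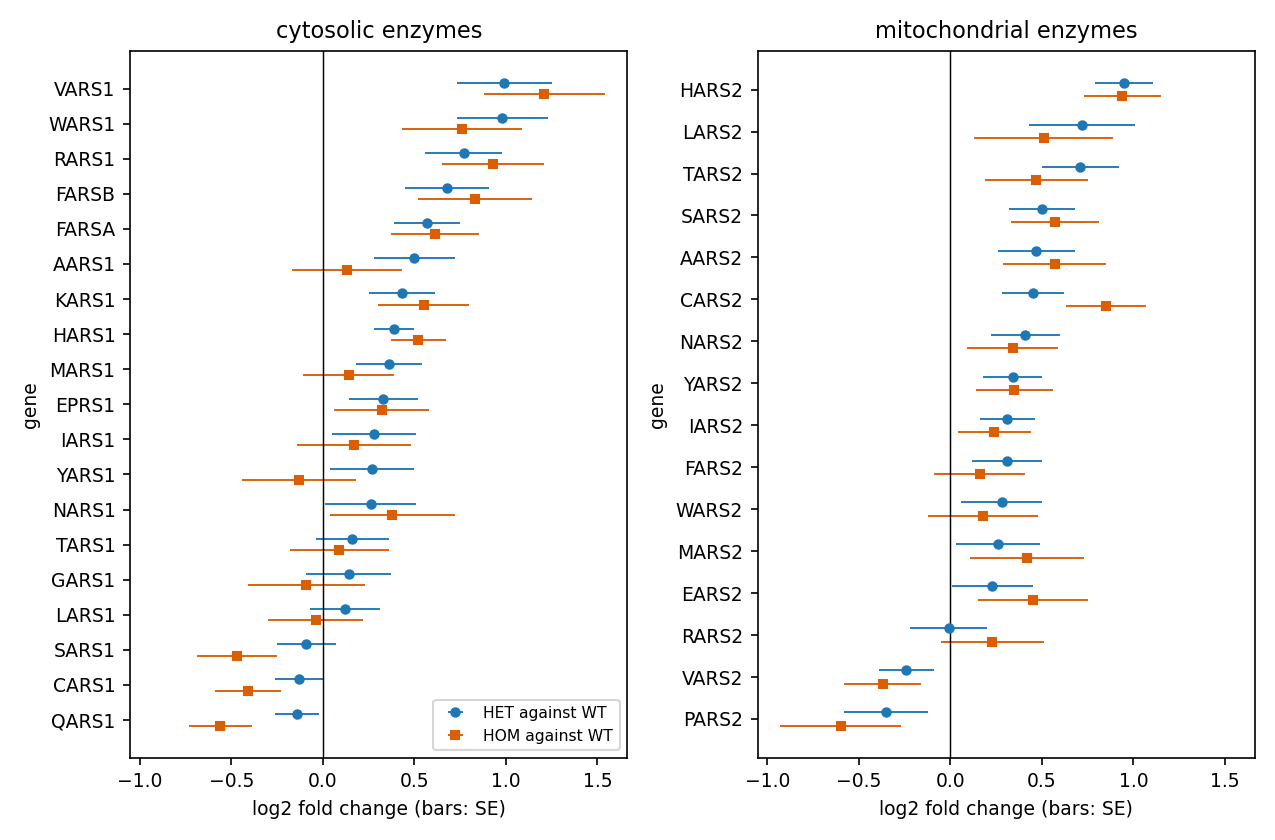
Log2 fold change (horizontal axis) of each gene, for HET against WT (blue circles) and HOM against WT (orange squares), with bars of ± 1 SE; both comparisons use the same 4 WT clones. VARS1 stands at 0.99 and 1.21 and HARS2 at 0.95 and 0.94, while QARS1 lies at -0.14 and -0.56.

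Between HOM and HET clones the estimates for these genes lay around 0. The log2 fold change was above 0 for 7 of 19 cytosolic genes (median -0.10) and 7 of 16 mitochondrial genes (median -0.04), against 45.1% of all genes. No member was called by edgeR, where 0% of all genes were called, and none was called in any of the 24 alternatives, DESeq2 and limma voom included. At an unadjusted p below 0.05, 1 member was lower, where 0.891% of all genes were, and 0 were higher, where 1.91% were. That member was QARS1, with a log2 fold change of -0.41 (SE 0.16, adjusted p = 1, edgeR) and both HOM clones below every HET clone. QARS1 was the only 1 of the 35 members wholly lower in HOM than in HET clones, where 258 of 20320 genes were. Without HOM 1 its value was -0.21. CARS2 stood at 0.40 (SE 0.20), and at -0.02 with HET 6 and HOM 1 left out. SARS1 stood at -0.38 (SE 0.21), and at -0.15 without HOM 1. For HARS2 the difference was -0.01 (SE 0.20).

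Within amino acids, the balance between the compartments differed in both directions. The log2 ratio of mitochondrial to cytosolic CPM for histidine was -1.99 ± 0.26 (SD, n = 4) in WT and -1.42 ± 0.19 (n = 7) in HET clones. For serine it was -4.41 ± 0.34 and -3.79 ± 0.23, for cysteine -3.04 ± 0.05 and -2.46 ± 0.26, and for leucine -2.24 ± 0.16 and -1.69 ± 0.33. In these 4 pairs the mitochondrial gene was the one with the larger estimate. The order was opposite for valine, at 0.26 ± 0.60 in WT and -0.93 ± 0.49 in HET clones, for arginine, at -1.35 ± 0.11 and -2.15 ± 0.54, and for tryptophan, at -1.44 ± 0.54 and -2.23 ± 0.28. For isoleucine the mean was -0.86 in both. These ratios were not tested.

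The levels of some members in single clones lay on the same side as the chromosome that carries the gene, and those of others did not; the examples were chosen after their values were seen. The deviation of a chromosome is the median log2 deviation of its expressed protein-coding genes from the 13-clone median. In HET 5 it was -0.78 for chromosome 18, where NARS1 lies, and NARS1 had its lowest level there, 93 CPM against 119 to 257 CPM in the other clones. In the same clone chromosome 16 stood at -0.52, and its members AARS1, KARS1 and EARS2 had 207, 165 and 41.2 CPM, each below the median of the HET clones. HET 7 stood at 0.26 for chromosome 3 and had the highest level of LARS2, 229 CPM. It stood at -0.35 for chromosome 6 and had the lowest level of RARS2, 28.4 CPM. WT 1, the lowest clone for TARS2 although the highest WT clone for most members, stood at -0.30 for chromosome 1, which carries TARS2. WT 4, the lowest for FARSB, stood at -0.30 for chromosome 2. CARS2 went the other way, since HET 3 and HET 4 stood at -0.36 and -0.33 for its chromosome 13 while its levels there were 20.7 and 16 CPM, against 13.1 to 18.7 CPM in the other HET clones. In HOM 1, where chromosome 13 stood at -0.22, CARS2 had its highest level of all. FARS2 in HET 7 (14.6 CPM) lay above the HET median although chromosome 6 stood at -0.35, and FARSB in HET 2 (109 CPM) below it although chromosome 2 stood at 0.28. The part of copy number in these levels was not tested. With each clone's chromosome medians removed, HARS2 was again the 1 member called in HET clones. That fit called 0.846% of all genes, against 0.128% in the reported fit.

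The 45 related genes of tRNA handling were examined beside the synthetases. In HET clones 35 were above 0, with a median of 0.19, where 50.8% of all genes were. In HOM clones 32 were, with a median of 0.25, where 49% of all genes were. EdgeR called none of the 45 in either, where it called 0.128% and 0% of all genes. At an unadjusted p below 0.05, 10 were higher and 3 lower in HET, and 8 higher and 1 lower in HOM clones. Of all genes 9.73% were higher and 8.73% lower in HET, and 7.52% higher and 6.84% lower in HOM clones. The lowest p-values in HET clones were those of HSD17B10, ELAC2 and PRORP, which take part in cutting mitochondrial tRNAs out of their precursors. HSD17B10 and PRORP, subunits of mitochondrial RNase P, stood at 0.78 (SE 0.17, adjusted p = 0.068, edgeR) and 0.81 (SE 0.22, adjusted p = 0.10, edgeR), and ELAC2, which trims the other end, at 0.84 (SE 0.22, adjusted p = 0.094, edgeR). HSD17B10 had 44.7 to 76.1 CPM in WT, 77.3 to 131 CPM in HET and 96.2 to 108 CPM in HOM clones, with no overlap between WT and edited clones. Of the 45 genes, 3 lay wholly higher and 2 wholly lower in HET clones, where 1.23% and 1.38% of all genes did. In HOM clones 13 lay wholly higher and 4 wholly lower, where 12.8% of all genes did in each direction. TRMT10C, the other subunit of that RNase P, stood at 0.24 (SE 0.23) in HET and 0.20 (SE 0.31) in HOM clones. In HOM clones RTCB, the tRNA ligase, stood at 0.59 (SE 0.18, adjusted p = 0.22, edgeR). Of the scaffold proteins of the multisynthetase complex, AIMP2 stood at 0.57 (SE 0.23) in HET and 0.65 (SE 0.30) in HOM clones, EEF1E1 at 0.26 (SE 0.23) and 0.54 (SE 0.32), and AIMP1 at 0.12 (SE 0.14) and 0.25 (SE 0.19).

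EIF2AK4, the kinase GCN2 that senses uncharged tRNA, stood at lower values in both HOM clones, without passing edgeR's test. It measured 92.1 to 104 CPM in WT, 82.6 to 115 CPM in HET, and 47.8 and 54.7 CPM in HOM 1 and HOM 2, so both HOM clones lay below all others. The log2 fold change was -0.93 (SE 0.15, adjusted p = 0.18, edgeR) against WT and -1 (SE 0.14, adjusted p = 0.086, edgeR) against HET clones, the lowest p of all genes in both comparisons. Of the 24 alternatives, some of which rest on 1 HOM clone, 4 called it against WT and 9 against HET clones. Its adjusted p was 2.5e-06 and 2.9e-09 in DESeq2. For HET against WT the log2 fold change was 0.07 (SE 0.11). In HOM against HET clones PSTK, a kinase for the selenocysteine tRNA, stood at 0.74 (SE 0.27) and PTRH2, a peptidyl-tRNA hydrolase, at 0.31 (SE 0.14), both with an edgeR adjusted p of 1. PSTK measured 11.6 CPM in HOM 1 and 5.77 CPM in HOM 2, and its estimate was 0.17 without HOM 1.

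Among 16 other ATF4 response genes, 5 were above 0 in HET clones, with a median of -0.33, and 2 in HOM clones, with a median of -0.78. Of all genes 50.8% and 49% were above 0. At an unadjusted p below 0.05, 3 of the 16 were lower in HET and 6 in HOM clones, where 8.73% and 6.84% of all genes were. The level of ATF4 itself stood at -0.11 (SE 0.16) in HET and -0.31 (SE 0.22) in HOM clones, and both groups overlapped WT. CEBPG, the C/EBP partner of ATF4, fell in HET clones, from 163 to 303 CPM in WT to 83.6 to 155 CPM, by 1.15 on the log2 scale (SE 0.18, adjusted p = 0.045, edgeR), and measured 86.1 and 102 CPM in HOM clones. This call was lost in 13 of 24 alternatives, with adjusted p-values up to 0.45, while the estimate ran from -1.31 to -1.01 over the 24. It was lost with 1 surrogate variable, the GC correction or only the groups compared, and without WT 2, WT 3 or WT 4. Each of those fits called 0% of all genes. CHAC1, a glutathione-degrading enzyme, stood at -0.88 (SE 0.36) in HET and -1.84 (SE 0.55) in HOM clones, and TRIB3, a pseudokinase that dampens ATF4, at -0.65 (SE 0.21) and -0.96 (SE 0.30), with edgeR adjusted p-values of 0.13 to 0.23. ASNS, asparagine synthetase, stood at -0.09 (SE 0.31) and -0.74 (SE 0.45), and its sign in HET clones turned to 0.24 without WT 1. In HOM against HET clones SESN2, SHMT2 and PHGDH stood at -0.72, -0.55 and -0.64, and SESN2 at -0.40 without HOM 1.

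Divided by promoter and known response, the cytosolic synthetases gave different medians. Promoter windows were found for 16 of the 19 cytosolic genes, and those without a window were counted as lacking the core. The 6 with the CARE core TGATGCAA had a median of 0.27 in HET and 0.14 in HOM clones, and the other 5 known to respond to ATF4 had 0.27 and -0.09. The remaining 8, which include VARS1, RARS1, HARS1 and the FARSA and FARSB subunits, had 0.50 and 0.58. At an unadjusted p below 0.05, 6 of these 8 were higher in HET clones, against 1 of the 6 and 1 of the 5, where 9.73% of all genes and 15.6% of those of at least 10 CPM were. WARS1 was the high value among the other ATF4-responsive genes. The medians depend on WT 1. It was the highest WT clone for every gene with the core but AARS1, and for every remaining gene but QARS1. Of the other ATF4-responsive genes it was the highest WT clone for GARS1 and WARS1 only. IARS1, with the core, had 906 CPM in WT 1 and 418 to 514 CPM in the other WT clones. RARS1, a remaining gene, had 170 CPM against 75.1 to 98.9 CPM. Group medians without WT 1 are not given, and the differences between groups of genes were not tested.

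**Figure D5:**
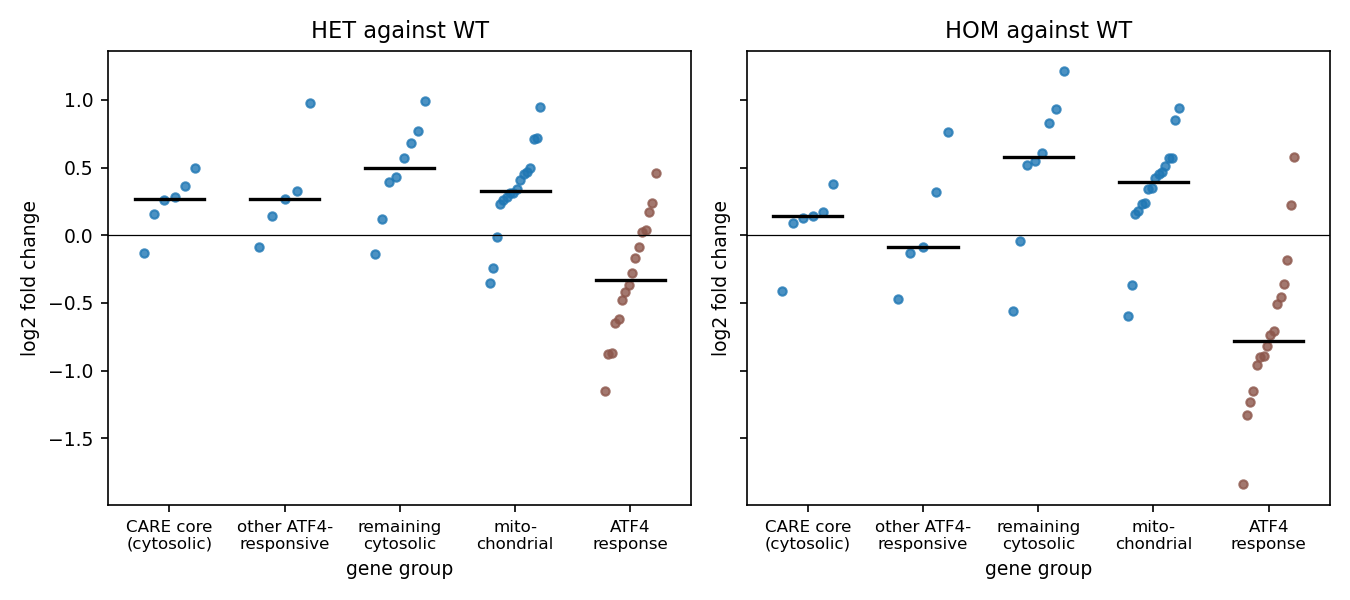
Log2 fold change (vertical axes) of each gene, in HET against WT (left) and HOM against WT (right), for cytosolic synthetases with the CARE core, other ATF4-responsive and remaining cytosolic synthetases, mitochondrial synthetases (blue) and 16 other ATF4 response genes (brown); lines are medians and both comparisons use the same WT clones. The remaining cytosolic group has medians of 0.50 and 0.58, and the ATF4 response genes -0.33 and -0.78. Cytosolic genes without a promoter window are counted as lacking the core.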

How the data were processed

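The authors deposited raw counts per gene for each clone. They come from reads processed with Trimmomatic 0.36, STAR and featureCounts 1.5.3 on hg19, per the submitters' processing notes. Which STAR version, annotation, strand setting and handling of multiply aligned reads they used is not given in the sources examined. The protocols in the labels give poly(A)-selected stranded libraries. Of 56238 rows, 51204 matched a symbol, taken from a list of current gene names or, where that gave none, from GENCODE 29. GENCODE 29, which describes another build, also served for chromosomes and exon lengths.

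Genes were filtered with filterByExpr (20320 kept), scaled by TMM and fitted over all 13 clones with edgeR 4.0.16 quasi-likelihood tests with robust estimation (R 4.3.3), two-sided, with Benjamini-Hochberg adjustment over all genes and a threshold of 0.05. Log2 CPM used a prior count of 2. Per sample, 44504068 to 54377639 counts limit precision less than the number of clones. No library was treated as a duplicate, since the most similar ones, WT 3 and WT 4, had a chi-square of 31.3 per gene. The fit was also run on simulated counts, the results of which are not given here.

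Alternatives were DESeq2 1.42.0, limma 3.58.1 voom with sample weights, 1 surrogate variable (sva 3.50.0), RLE factors, no filter, a mean CPM of at least 1, only the groups compared, non-robust estimation, a GC correction, removal of chromosome medians and leaving out each clone. Leaving out HET 6 and HOM 1 together was added after seeing the data. The members, lists and tests were chosen with earlier results of these data known. Named were members called in any comparison, the 5 cytosolic and 5 mitochondrial genes of lowest p against WT, the 3 of lowest p in HOM against HET, those of highest and lowest SD, and HARS1, HARS2, LARS1, EPRS1, GARS1 and KARS1; further members were named where a level, clone or chromosome was described, after their values were seen. Of the related and ATF4 lists, those of lowest p and 7 genes of known role were named, and TRMT10C and ATF4 after their values were seen.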

Additional observations from a re-analysis of the deposited data

Results flagged for a closer look

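In 4 of 70 groups (35 genes in the WT and the HET clones) the highest or lowest clone stood further from its neighbour than Dixon's 95% limit allows, where chance would give about 1 in 20. In WT 1 the level of GARS1 was 377 CPM, against 192 to 209 CPM in the other WT clones, and that of LARS2 was 133 CPM, against 68.1 to 70 CPM. In WT 2 the level of YARS1 (cytosolic tyrosine enzyme) was 325 CPM, the lowest of the WT clones. In HET 6 the level of FARS2 (mitochondrial phenylalanine enzyme) was 7.39 CPM, against 12.4 to 15.8 CPM in the other HET clones.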

How the results depend on the processing

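The direction over the set held except with 1 surrogate variable, while the number of genes called varied with the fit; the cause was not tested. In HET against WT clones, 1 member was called in the reported fit, 6 with DESeq2, 17 with limma voom, 7 without both HET 6 and HOM 1, and 0 with only the groups compared, 1 surrogate variable or the GC correction. The fits with only the groups compared, 1 surrogate variable or the GC correction called 0% of all genes. The number of members called ranged from 0 to 8 over the fits that left out 1 clone. It was 7 without WT 1 (7.14% of all genes) and 8 without HET 6 (7.74%). Where leaving out another WT or HET clone gave 0 members, 0% of all genes were called, or 0.00984% without HET 2. In HOM against WT clones, 0 members were called, 4 with DESeq2 (1.77% of all genes called), 7 with limma voom (2.94%) and 0 to 2 with 1 clone left out, and HARS2 and RARS1 were the 2 called without WT 1 (1.22%). All genes called in HET against WT clones were 26, and 1073 with DESeq2 and 4218 with limma voom. With 1 surrogate variable, 17 of the 35 members were above 0 in HET and 15 in HOM clones, 5 in HET and 5 in HOM were higher at an unadjusted p below 0.05 (4.21% and 4.95% of all genes), and the medians were -0.06 and -0.22 for the cytosolic and 0.02 and 0 for the mitochondrial genes. With 1 clone left out, members higher at an unadjusted p below 0.05 were 10 to 20 in HET and 5 to 15 in HOM clones, where 6.17% to 13.5% and 3.74% to 11.4% of all genes were. The sign turned with 1 surrogate variable in HET clones for LARS1 (-0.28), EPRS1 (-0.06), GARS1 (-0.35), EIF2AK4 (-0.06), AIMP1 (-0.09) and EEF1E1 (-0.22), and in HOM clones for EPRS1 (-0.06). With limma voom it turned for ASNS in HET clones (0.19) and for LARS1 (0.15) and GARS1 (0.12) in HOM clones. Without both HET 6 and HOM 1 it turned for ASNS in HET against WT (0.01) and CARS2 in HOM against HET clones (-0.02). With 1 clone left out, ASNS ran from -0.27 to 0.24 in HET clones (0.24 without WT 1 and 0 without HET 5), and in HOM clones LARS1 ran from -0.15 to 0.19 and GARS1 from -0.33 to 0.20. Of 1440 single-gene values under alternatives, 1312 kept their direction and side of the threshold, 27 lost a call, 83 gained one and 18 turned sign. No paired analysis was possible because the labels give no replicate numbers; the number that opens each clone's name, of unexplained meaning, is shared by different genotypes only in WT 4, HET 7 and HOM 2. Exon lengths of another build limit the TPM values, and 2 HOM clones limit every comparison with HOM.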

Other observations

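FLCN and the synthetase genes had opposite extremes in the same HET clone. HET 6, with the highest FLCN level of all clones, 64 CPM, had the lowest mean log2 deviation of the HET clones for cytosolic (-0.13) and mitochondrial (-0.12) synthetases. WT 3, the highest WT clone for FLCN at 50.5 CPM, had the lowest cytosolic mean of all clones (-0.21) but not the lowest mitochondrial mean (-0.05, with -0.08 in WT 2), and WT 1, the lowest WT clone for FLCN at 26.1 CPM, had the highest cytosolic mean of the WT clones (0.39). HET 3, the highest clone for both sets (0.68 and 0.72), had 30.9 CPM of FLCN, and HOM 1, the lowest for FLCN at 23.7 CPM, had means of 0.28 and 0.30. These values were noticed after the data had been seen, and no relation was tested.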
